A study of Danio rerio with 2 samples.

Results

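The 10 genes described here encode receptors and targets of the stress axis. They are the receptors of corticotropin-releasing hormone (CRH) crhr1 and crhr2, the vasotocin receptors avpr1aa and avpr1ab, the glucocorticoid receptor nr3c1, the mineralocorticoid receptor nr3c2, the cortisol-inactivating enzyme hsd11b2 and the glucocorticoid targets fkbp5, tsc22d3 and klf9. They were named by symbol, with earlier results of these data known, and all 10 were found among the 25432 genes listed. Pituitaries were taken from gnrh3-/- and WT female zebrafish, both 3 months old, 1 hour before lights on. For each genotype 5 pituitaries were pooled, dissociated for 40 min at 28.5 °C and sequenced as a single droplet library. With 1 library each, differences between the genotypes have no replicate check, and cells were not used as replicates in any test. The knockout of gnrh3, a neuropeptide gene, cannot be checked in these cells, since gnrh3 had 1 counted molecule in the gnrh3-/- cells and 1 in the WT cells described here.

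In fish, CRH from the hypothalamus acts on corticotropes of the anterior pituitary, which cut corticotropin (ACTH) out of the Pomc precursor and release it. Corticotropin drives cortisol synthesis in the interrenal tissue, and cortisol acts back on brain and pituitary through the receptors encoded by nr3c1 and nr3c2. Hsd11b2 converts cortisol to the inactive cortisone. Melanotropes of the intermediate lobe cut the same precursor to melanocyte-stimulating hormone.

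The gnrh3-/- library held 4794 cells and the WT library 2194 cells, with a median of 5368 and 6961 unique molecular identifiers (UMIs, counted molecules) per cell. Values are given for 13 of the 14 deposited cell types, and the median depth of a type was 0.499 to 0.737 times as high in the gnrh3-/- library as in the WT library. The level of a gene in a type is given as UMIs per 10000 UMIs of all genes, from the counts summed over its cells, with an exact Poisson 95% interval that covers counting error only. The types were clustered by the authors from variable genes of the same cells, so levels by type are a description. The 2 libraries shared 1 cell barcode. Scrublet called 167 doublets (3.48% of cells) in the gnrh3-/- library and 5 (0.228%) in the WT library. Cells with over 5% of UMIs from another type's hormone gene (foreign-hormone cells) numbered 158 (3.30%) in the gnrh3-/- library and 10 (0.456%) in the WT library. Both kinds of cell were kept. Values without them are given for some results of the 10 genes, not for each one that moved. Levels and ratios of other genes named below were not recomputed without them. The hormone genes were highest in the types named for them, while pou1f1 was highest in lactotropes and pax7b was not highest in melanotropes. The POMC gene pomca was highest in melanotropes and corticotropes, its activator tbx19 in corticotropes and isl1+ cells, and pcsk2, the convertase of melanotropes, had a level of 3.56 (gnrh3-/-) and 3.34 (WT) in melanotropes and 0 UMIs in corticotropes. The immune markers fcer1gl and ptprc were concentrated in the undetermined cells, with a summed level of 13.7 in the gnrh3-/- library and 22.1 in the WT library, and at most 0.0138 elsewhere in either library. The 3 endothelial markers had 12 UMIs in gnrh3-/- cells and 2 in WT cells.

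crhr1, the receptor through which CRH drives corticotropin release, was the only one of the 4 peptide receptors with more than a few UMIs. It had 322 UMIs in gnrh3-/- cells and 254 in WT cells, of which 34.8% and 42.9% lay in corticotropes. The level in corticotropes was 0.720 (interval 0.593 to 0.866) in the gnrh3-/- library and 0.857 (0.704 to 1.03) in the WT library. By this level corticotropes stood first in both libraries. In the gnrh3-/- library the next types were somatotropes beta at 0.144, FSH gonadotropes at 0.109 and melanotropes at 0.104, whose intervals overlapped, and corticotropes were 5.01-fold above the first of them. In the WT library the next were the undetermined cells at 0.476, from 3 UMIs in 1 cell, then melanotropes at 0.221, lactotropes at 0.179 and somatotropes beta at 0.123. The interval of the undetermined cells (0.098 to 1.39) overlapped that of corticotropes. As a mean over cells the undetermined cells led the WT library, at 1.23 against 0.826 in corticotropes. With the cell of the highest count left out of each type, corticotropes were 3.89-fold above melanotropes in the WT library. LH gonadotropes had 0.0114 in the gnrh3-/- library and 0.00526 in the WT library. her6+ cells had 0 UMIs in both, but 3 counts there are a level of 0.0896 (gnrh3-/-) and 0.135 (WT), so no order is read from these zeros. The log2 ratio of the level in gnrh3-/- cells over that in WT cells was -0.25 in corticotropes, with an exact binomial interval of -0.64 to 0.14 that covers counting error only. It was 0.76 (0.08 to 1.50) in FSH gonadotropes, where 79 gnrh3-/- and 23 WT UMIs gave levels of 0.109 and 0.0642.

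As the WT library was deeper, shares of cells were compared after thinning each cell to 2000 UMIs. A crhr1 UMI was then found in 12.4% of gnrh3-/- corticotropes and 14.8% of WT corticotropes, against 27.0% and 38.7% before thinning. Among LH gonadotropes, which had few crhr1 UMIs at a higher depth, the thinned shares were 0.168% in the gnrh3-/- library and 0% in the WT library. The intervals of both pairs overlapped between the libraries. The level of crhr1 in empty droplets was 0.169 in the gnrh3-/- library and 0.175 in the WT library. Free RNA was estimated at 0.424% to 1.63% of UMIs in the gnrh3-/- types and 0.144% to 0.551% in the WT types, and its subtraction left corticotropes at 0.725 and 0.860. Of the corticotropes with a crhr1 UMI, 73 in the gnrh3-/- library and 72 in the WT library also had a hsd11b2 UMI. Cells with both made up 26.6% (gnrh3-/-) and 38.7% (WT) of corticotropes. The product of the separate shares was close to this, at 26.0% and 38.1%.

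**Figure D1:**
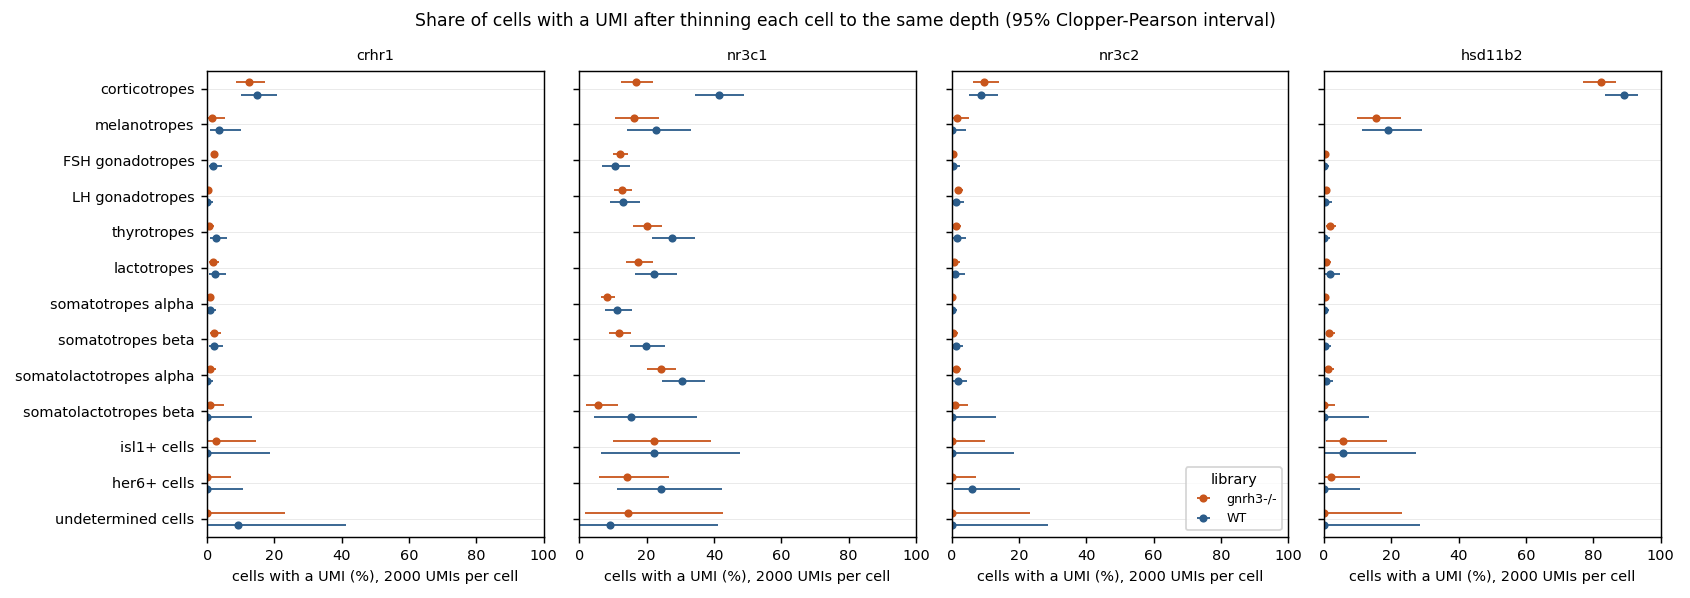
Share of cells with at least 1 UMI of crhr1, nr3c1, nr3c2 and hsd11b2 (x axis, percent) in 13 cell types (y axis) after each cell was thinned to 2000 UMIs, for the gnrh3-/- library (orange) and the WT library (blue), with exact 95% Clopper-Pearson intervals. hsd11b2 was found in 82.2% of gnrh3-/- and 89.1% of WT corticotropes, and the nr3c1 share of corticotropes was 16.7% in the gnrh3-/- library and 41.5% in the WT library.

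crhr2, the receptor that in mammals prefers the urocortins, had 1 UMI in the gnrh3-/- library, in a somatotrope beta, and 0 in the WT library. avpr1aa, a receptor of the V1a kind for vasotocin, the fish counterpart of vasopressin, had 5 UMIs in gnrh3-/- cells and 1 in WT cells. Of these, 4 and 1 were in somatotropes alpha. avpr1ab, its paralog, had 0 UMIs in either library, also among all barcodes. A count of 0 allows a level of up to 0.000903 over all gnrh3-/- cells and 0.00136 over all WT cells (3 counts), or a UMI in up to 0.0626% and 0.137% of the cells. In corticotropes, where crhr2, avpr1aa and avpr1ab all had 0 UMIs, 3 counts are a level of 0.0193 in the gnrh3-/- library and 0.0236 in the WT library. These 3 genes were thus not detected in corticotropes, which at this depth leaves room for levels up to these values.

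nr3c1, the glucocorticoid receptor, was found in all 13 types of both libraries, with 2107 UMIs in gnrh3-/- cells and 2039 in WT cells. Its level in corticotropes was 1.19 (1.02 to 1.37; 185 UMIs) in the gnrh3-/- library and 2.69 (2.41 to 2.99; 342 UMIs) in the WT library. The log2 ratio was -1.18 (-1.44 to -0.91). This ratio was at percentile 4.75 of the 7291 genes with at least 20 UMIs in corticotropes, where the median of all genes was -0.11 and the 5th percentile -1.15. The share of corticotropes with a nr3c1 UMI at 2000 UMIs per cell was 16.7% (gnrh3-/-) and 41.5% (WT). The highest count in a corticotrope was 5 UMIs in the gnrh3-/- library and 12 in the WT library, and the ratio without the highest cell of each was -1.17. Over 7 alternatives it lay between -1.26 and -1.05. Corticotropes had 13 foreign-hormone cells of 274 in the gnrh3-/- library and 2 of 186 in the WT library, and without such cells the ratio was -1.16. Hormone transcripts of other types were higher in gnrh3-/- corticotropes. The level of gh1 was 116 in the gnrh3-/- library and 39.4 in the WT library, that of prl 40.4 and 2.52, and that of smtlb 76.7 and 0.385. The red blood cell markers hbaa1 and hbba1 had a summed level of 0.135 in gnrh3-/- corticotropes and 0 in WT corticotropes. Without Scrublet doublets the nr3c1 ratio was -1.20, and the 7 alternatives also included subtraction of free RNA and totals without hormone genes. Beyond these alternatives, the part of such transcripts in the nr3c1 ratio was not tested.

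The order of the types changed at the top with it. In the WT library corticotropes led, 1.51-fold above somatolactotropes alpha at 1.78, and the intervals did not overlap. The wider interval of WT isl1+ cells (1.04 to 2.58, from 21 UMIs) did overlap that of corticotropes. In the gnrh3-/- library somatolactotropes alpha led at 1.48, and corticotropes followed with overlapping intervals. With the hormone transcripts left out of the total, which hold 25.6% (gnrh3-/-) and 22.6% (WT) of the UMIs of corticotropes, corticotropes came first in the gnrh3-/- library too, at 1.60 against 1.54. In the WT library thyrotropes then came second, at 2.09. With all genes in the total, the next after these 2 types were lactotropes at 0.970 and thyrotropes at 0.928 in the gnrh3-/- library. In the WT library they were isl1+ cells at 1.68, thyrotropes at 1.57 and lactotropes at 1.32. Lactotropes and thyrotropes did not differ beyond their intervals in either library. Somatotropes alpha were low in both, at 0.312 and 0.486, with hormone transcripts at 60.4% and 62.3% of their UMIs.

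The difference in nr3c1 was not limited to corticotropes. The log2 ratio was below 0 in 11 of the 12 types with at least 20 UMIs, with a median of -0.46, and below the median of all genes of the same type in 12 of 12. Under TMM scaling it was below 0 in 12 of 12. Among the genes of each type, the nr3c1 ratio ran from percentile 4.75 (corticotropes) to 46.8 (LH gonadotropes). After corticotropes the lowest ratio was that of isl1+ cells, at -0.89 (-1.98 to 0.15), from 14 UMIs in the gnrh3-/- library and 21 in the WT library. Thyrotropes had 0.928 in the gnrh3-/- library and 1.57 in the WT library, and their ratio was -0.76 (-1.08 to -0.44). In somatotropes alpha the ratio was -0.64 (-0.89 to -0.39) and in somatotropes beta -0.60 (-0.90 to -0.30). LH gonadotropes were the exception, at 0.578 and 0.557 and a ratio of 0.05, which was -0.02 when the libraries were scaled by the TMM method. Such scaling moved the ratios of all genes by -0.08 to 0.26 depending on the type. In FSH gonadotropes the level was 0.642 in the gnrh3-/- library and 0.799 in the WT library, with a ratio of -0.32 (-0.53 to -0.10), while the thinned shares of cells were 12.05% and 10.4%, so that no order is read from these shares. Over all genes and types, 56.4% of the 80995 pairs of gene and type with at least 20 UMIs had a ratio below 0.

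nr3c2, the mineralocorticoid receptor, which also binds cortisol, was sparse and centred on corticotropes. The level there was 0.444 (0.345 to 0.561; 69 UMIs) in the gnrh3-/- library and 0.432 (0.326 to 0.563; 55 UMIs) in the WT library. Corticotropes held 42.6% of all nr3c2 UMIs in gnrh3-/- cells and 35.3% in WT cells. Of the 13 types, no other was above 0.130 in the gnrh3-/- library (isl1+ cells, 2 UMIs). In the WT library no other of them was above 0.135 (her6+ cells, 3 UMIs). The intervals of these small types overlapped that of corticotropes. The thinned share of corticotropes was 9.69% (gnrh3-/-) and 8.74% (WT), and in somatotropes alpha it was 0% in both libraries. Of the 13 types, only corticotropes and LH gonadotropes had at least 20 UMIs. The log2 ratio was 0.04 (-0.50 to 0.58) in corticotropes and 0.12 (-0.86 to 1.13) in LH gonadotropes. Thus nr3c2 was about as high in gnrh3-/- as in WT corticotropes, while an interval of this width leaves room for changes in either direction. A UMI of both nr3c1 and nr3c2 was found in 32 of 274 gnrh3-/- corticotropes and 32 of 186 WT corticotropes.

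**Figure D2:**
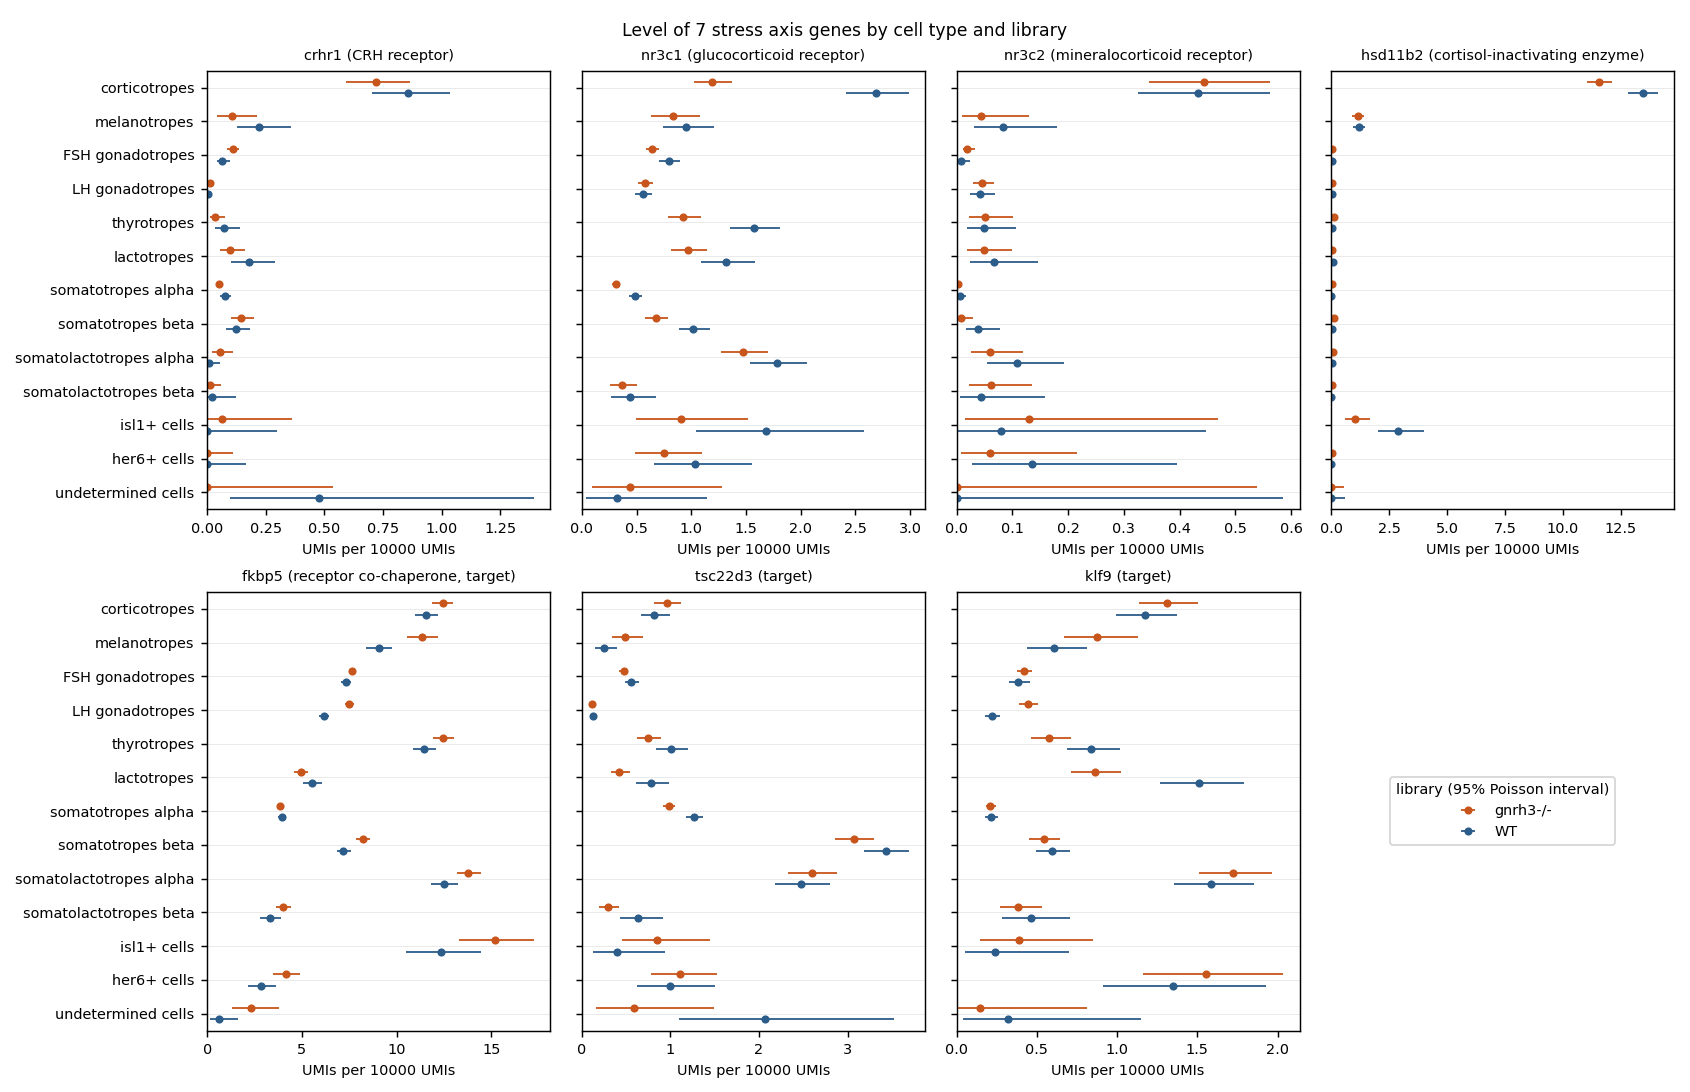
Level of crhr1, nr3c1, nr3c2, hsd11b2, fkbp5, tsc22d3 and klf9 (x axis, UMIs per 10000 UMIs of all genes, with its own scale in each panel) in 13 cell types (y axis) of the gnrh3-/- library (orange, above) and the WT library (blue, below), with exact 95% Poisson intervals. crhr1, nr3c2 and hsd11b2 peaked in corticotropes of both libraries, nr3c1 did so on this scale in the WT library only (2.69, against 1.19 in gnrh3-/- corticotropes), and fkbp5 was spread over all types.

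Among the 13 types described here, hsd11b2 was almost restricted to the POMC cells. Corticotropes had a level of 11.6 (11.0 to 12.1; 1799 UMIs) in the gnrh3-/- library and 13.4 (12.8 to 14.1; 1711 UMIs) in the WT library. They held 83.7% of the hsd11b2 UMIs of gnrh3-/- cells and 83.5% of those of WT cells. A UMI was found in 96.4% of gnrh3-/- and 98.4% of WT corticotropes, and in 82.2% and 89.1% at 2000 UMIs per cell. The median corticotrope held 4 hsd11b2 UMIs in the gnrh3-/- library and 7.5 in the WT library. The log2 ratio was -0.22 (-0.31 to -0.12), at percentile 41.1 of the genes of this type.

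Melanotropes came next among the larger of the 13 types, at 1.14 (0.902 to 1.43) in the gnrh3-/- library and 1.19 (0.948 to 1.46) in the WT library. Their log2 ratio was -0.05. Corticotropes stood 10.1-fold above melanotropes in the gnrh3-/- library. At 2000 UMIs per cell, 15.6% of gnrh3-/- and 19.0% of WT melanotropes had a UMI. Melanotropes held 77 hsd11b2 UMIs beside 55 of tbx19 in the gnrh3-/- library and 86 beside 54 in the WT library, a ratio of 1.40 and 1.59, whereas the ratio in corticotropes was 3.45 and 4.27. Of the melanotropes with a hsd11b2 UMI, 24 of 37 in the gnrh3-/- library and 32 of 39 in the WT library also had a UMI of pcsk2, which no corticotrope had. Among all melanotropes, pcsk2 was found in 68.6% (gnrh3-/-) and 78.8% (WT).

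In isl1+ cells the hsd11b2 level was 1.04 in the gnrh3-/- library and 2.89 in the WT library, but few cells carried it. In the WT library all 36 UMIs were in 1 of 19 cells, and in the gnrh3-/- library 12 of 16 were in cells with over 5% of UMIs from pomca. Without the cells with a foreign hormone gene the levels were 0.299 (gnrh3-/-) and 0 (WT). In the other 10 types hsd11b2 was between 0 and 0.123 in the gnrh3-/- library and between 0 and 0.0559 in the WT library. Its level in empty droplets was 1.13 and 1.14.

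Somatotropes beta gave the highest log2 ratio of all members. Their hsd11b2 level was 0.123 (30 UMIs) in the gnrh3-/- library and 0.0147 (3 UMIs) in the WT library, and the log2 ratio was 3.07 (1.38 to 5.42). In the same cells the pomca level was 29.4 in the gnrh3-/- library and 1.24 in the WT library. Without Scrublet doublets the hsd11b2 levels were 0.0313 (gnrh3-/-) and 0.0148 (WT), with a log2 ratio of 1.08, and 21 of the 422 gnrh3-/- cells and 2 of the 255 WT cells were removed. That ratio has no interval, and its WT level rests on at most 3 UMIs. The ratio was 2.96 without foreign-hormone cells, 3.27 under TMM scaling and 3.21 without the highest cell of each library.

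fkbp5 encodes a co-chaperone of Hsp90 that lowers the hormone affinity of the glucocorticoid receptor and is itself a glucocorticoid target. It was found in all types, with 23537 UMIs in gnrh3-/- cells and 14826 in WT cells, and in 89.7% and 92.2% of all cells. The highest levels were in isl1+ cells (15.2 in the gnrh3-/- library, 12.4 in the WT library), somatolactotropes alpha (13.8 and 12.5), thyrotropes (12.5 and 11.4) and corticotropes (12.4 and 11.6). The intervals of thyrotropes and corticotropes overlapped in both libraries, as did those of isl1+ cells and somatolactotropes alpha. Melanotropes followed with 11.3 in the gnrh3-/- library and 9.05 in the WT library. The undetermined cells were lowest, at 2.33 and 0.635. Next to last were somatotropes alpha in the gnrh3-/- library, at 3.83, and her6+ cells in the WT library, at 2.84. With the hormone transcripts left out of the total, melanotropes led the gnrh3-/- library at 18.9 and thyrotropes led the WT library at 15.2, so the first place depends on this choice.

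The log2 ratio of fkbp5 was above 0 in 11 of 13 types, with a median of 0.19, and above the median of all genes of the type in 13 of 13, as it was above 0 in 13 of 13 under TMM scaling. The exceptions to the first count were lactotropes, at 4.96 (gnrh3-/-) and 5.55 (WT) with a ratio of -0.16, and somatotropes alpha, with a ratio of -0.04. Both were at 0.10 under TMM scaling. Among the genes of each type, the fkbp5 ratio ran from percentile 53.0 (lactotropes) to 96.3 (undetermined cells), with 68.0 in corticotropes. Over all genes and types, 43.6% of pairs had a ratio above 0. How many genes lie on the same side of the median in every type was not counted. her6+ cells had 4.15 (139 UMIs) in the gnrh3-/- library and 2.84 (63 UMIs) in the WT library, a ratio of 0.55 (0.11 to 1.00) that was 0.75 under TMM scaling. LH gonadotropes had 7.50 in the gnrh3-/- library and 6.15 in the WT library, a ratio of 0.28 (0.21 to 0.36), and melanotropes had a ratio of 0.32 (0.17 to 0.48). In corticotropes the ratio was 0.10 (0.01 to 0.20). Only the undetermined cells were past 2-fold, at 1.88 (0.24 to 3.92), from 16 UMIs over all 17 gnrh3-/- cells of this type and 4 UMIs over all 11 WT cells. The handling genes fosab, fosb, junba, jun, egr1 and atf3, which respond within minutes to dissociation, had a summed level of 13.8 to 112 across gnrh3-/- types and 17.0 to 131 across WT types. In corticotropes the sum was 50.7 (gnrh3-/-) and 46.1 (WT). Their part in the levels of the glucocorticoid targets was not tested.

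tsc22d3, which encodes the glucocorticoid-induced leucine zipper protein, followed other types. Somatotropes beta led with 3.07 (2.85 to 3.30) in the gnrh3-/- library and 3.43 (3.18 to 3.69) in the WT library. Somatolactotropes alpha followed with 2.60 and 2.48, and the intervals overlapped in the gnrh3-/- library but not in the WT library. Somatotropes alpha had 0.985 and 1.27, and corticotropes had 0.958 and 0.817. LH gonadotropes were lowest, at 0.112 in the gnrh3-/- library and 0.124 in the WT library, and at 0.0687 and 0.106 without foreign-hormone cells. At 2000 UMIs per cell a UMI was found in 46.4% (gnrh3-/-) and 48.0% (WT) of somatotropes beta and 1.84% and 1.74% of LH gonadotropes.

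Of the 11 types with at least 20 tsc22d3 UMIs, 7 had a log2 ratio below 0 and 4 above (6 and 5 under TMM scaling). The lowest was in somatolactotropes beta, with 0.291 (28 UMIs) in the gnrh3-/- library and 0.638 (29 UMIs) in the WT library and a ratio of -1.13 (-1.94 to -0.33). The WT value came from 27 cells. Lactotropes had 0.423 and 0.783, a ratio of -0.89 (-1.41 to -0.37). The highest was in melanotropes, with 0.490 (33 UMIs) in the gnrh3-/- library and 0.248 (18 UMIs) in the WT library and a ratio of 0.98 (0.11 to 1.90). In corticotropes the ratio was 0.23 (-0.14 to 0.60).

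klf9, a zinc finger transcription factor induced by glucocorticoids, was highest in somatolactotropes alpha, at 1.72 (1.51 to 1.96) in the gnrh3-/- library and 1.59 (1.35 to 1.85) in the WT library. her6+ cells had 1.55 and 1.35, with intervals that overlapped those of somatolactotropes alpha in both libraries, and corticotropes had 1.31 and 1.17. In the WT library lactotropes stood second, above her6+ cells, at 1.51 (1.27 to 1.79), an interval that overlapped that of somatolactotropes alpha. Somatotropes alpha were low, at 0.210 and 0.216. Without the hormone transcripts in the total, lactotropes led the WT library at 1.98. LH gonadotropes had 0.445 (234 UMIs) in the gnrh3-/- library and 0.221 (84 UMIs) in the WT library, a log2 ratio of 1.01 (0.64 to 1.39). It was 0.93, short of 2-fold, under TMM scaling. At 2000 UMIs per cell the klf9 shares of LH gonadotropes were 9.88% (gnrh3-/-) and 5.22% (WT). Lactotropes went the other way, with 0.859 in the gnrh3-/- library and 1.51 in the WT library and a ratio of -0.81 (-1.18 to -0.45). Here the ratio was -0.56 under TMM scaling. The ratio in corticotropes was 0.16 (-0.15 to 0.48).

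In corticotropes the members did not move together. Of the 6 genes with at least 20 UMIs there beside nr3c1, none was past 2-fold, and their log2 ratios ran from -0.25 for crhr1 to 0.23 for tsc22d3. Over the 13 types, 60 pairs of member and type had at least 20 UMIs. Of these, 3 were at least 2-fold higher in the gnrh3-/- library (5.0%) and 4 at least 2-fold lower (6.67%), where over all genes 3.23% of pairs were higher and 4.43% lower. The higher pairs were hsd11b2 in somatotropes beta, fkbp5 in undetermined cells and klf9 in LH gonadotropes. The lower pairs were nr3c1 in corticotropes, crhr1 in melanotropes (7 UMIs in the gnrh3-/- library and 16 in the WT library, a ratio of -1.09 with an interval of -2.61 to 0.28), hsd11b2 in isl1+ cells and tsc22d3 in somatolactotropes beta. With a minimum of 100 UMIs, 43 pairs were left, of which 1 was higher (klf9 in LH gonadotropes) and 1 lower (nr3c1 in corticotropes), where over all genes 1.23% of pairs were higher and 1.1% lower. Nothing particular to the members is read from counts of this size.

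**Figure D3:**
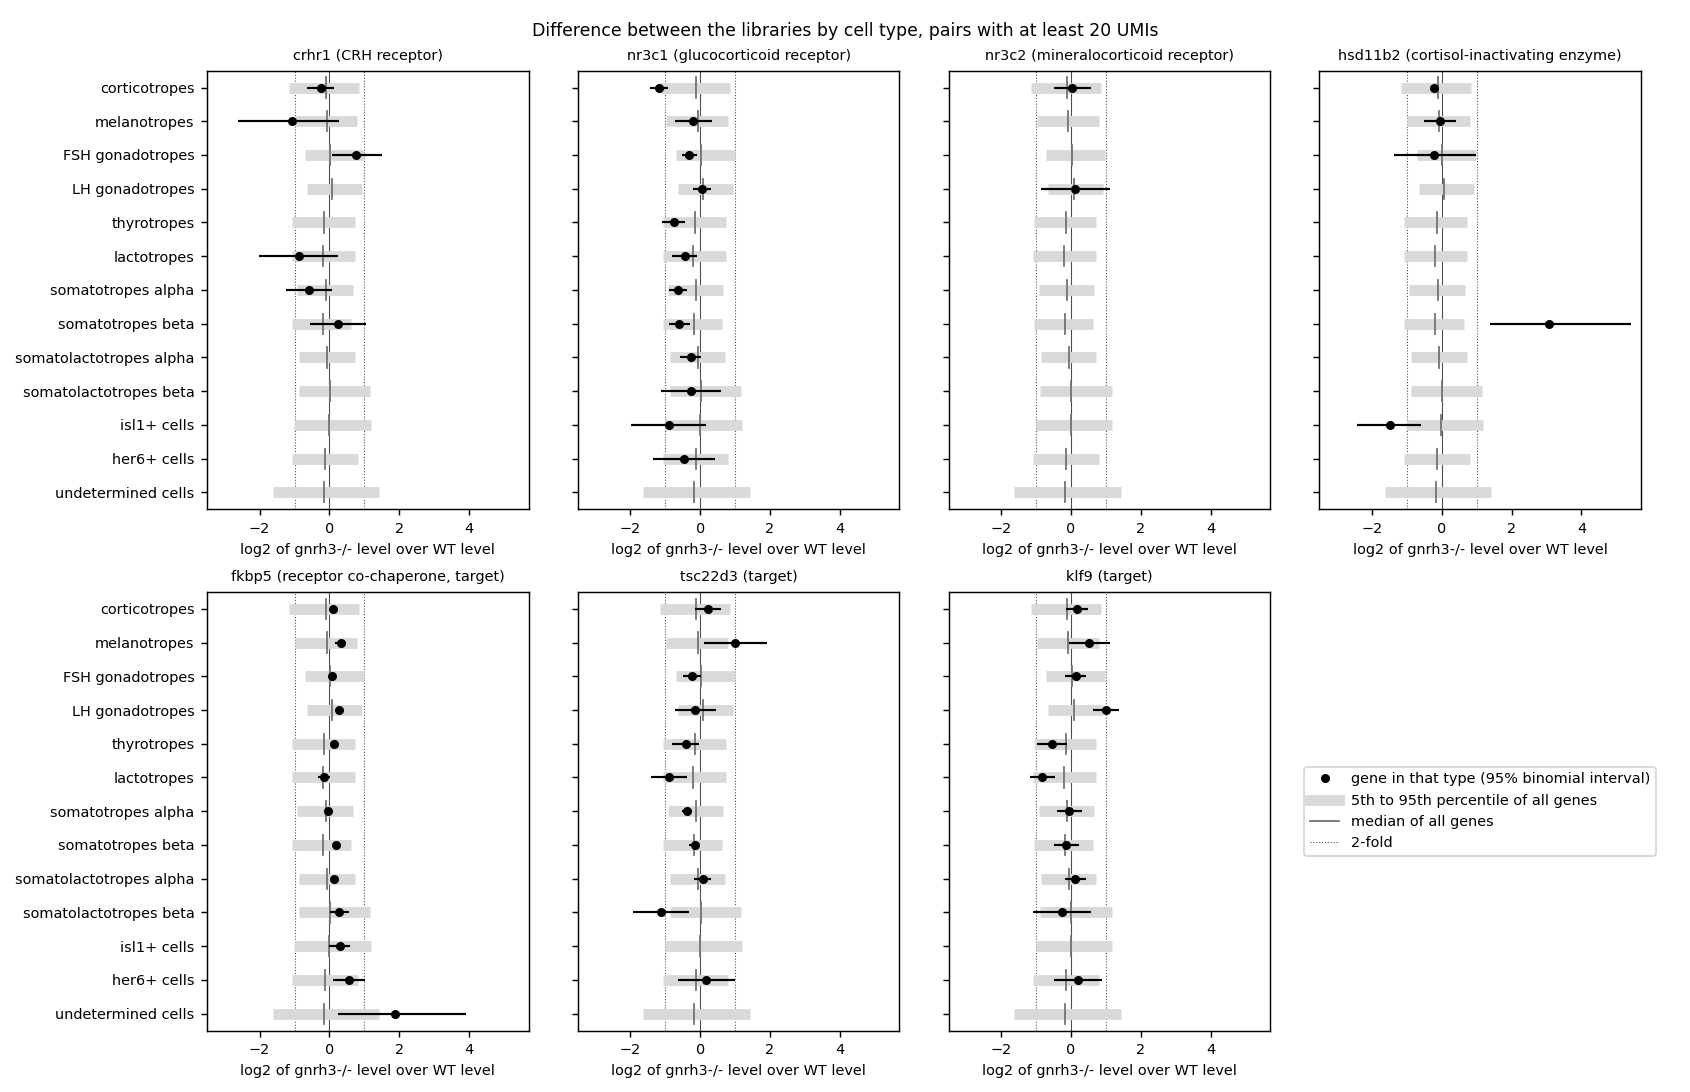
Log2 ratio of levels, gnrh3-/- over WT (x axis), of 7 genes in the cell types (y axis) where the gene had at least 20 UMIs over both libraries, with exact 95% binomial intervals (points and lines). Grey bars span the 5th to the 95th percentile of all genes of the type, grey ticks mark their median, and dotted lines mark 2-fold. nr3c1 lay at -1.18 in corticotropes and below the median of all genes in all 12 types shown, and fkbp5 lay above it in all 13.

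The pattern of each gene over the 13 types was similar in both libraries for nr3c1 (Pearson r = 0.908, Spearman rho = 0.934, on log2(level + 0.05)), hsd11b2 (0.966 and 0.796), fkbp5 (0.935 and 0.962) and nr3c2 (0.906 and 0.797). It was least similar for crhr1 (0.594 and 0.420). Within a library the points share its depth and its free RNA, so these values describe the libraries. Among 9467 genes with at least 200 UMIs, the genes most like each member over the 13 types were ranked by the lower r of both libraries. The closest to hsd11b2 were tbx19, the transcription factor that activates the POMC gene, with 0.964, rdh10a, a retinol dehydrogenase, with 0.952, and si:ch211-191i18.4 with 0.945. The closest to nr3c1 were capns1b, a calpain subunit, with 0.943, anp32a with 0.90 and acin1a with 0.899. For nr3c2 they were furinb, a proprotein convertase, with 0.880, gpc6a with 0.848 and itpk1b with 0.845. For fkbp5 they were atp6v0cb, a subunit of the vacuolar proton pump, with 0.931, si:ch73-311h14.2 with 0.923 and atpv0e2 with 0.916. For klf9 they were ppp2r5d with 0.862, uacab with 0.854 and cicb with 0.851. No gene reached 0.8 for crhr1, where tbc1d4, gad2 and gapdh came first at 0.757, 0.752 and 0.746. The same held for tsc22d3, where zgc:152863, the clock repressor gene nr1d2a and the somatostatin receptor gene sstr2a came first at 0.701, 0.663 and 0.662.

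Other genes of the axis were read from fixed lists. Of 9 peptides and precursors, 6 had a UMI. uts1, a relative of CRH, was seen in lactotropes, at 0.423 in the gnrh3-/- library and 0.503 in the WT library, and avp, the vasotocin precursor gene, in LH gonadotropes, at 0.0741 and 0.0420. crhbp, the CRH-binding protein, was 0.451 (71 UMIs) in gnrh3-/- thyrotropes and 0.212 (26 UMIs) in WT thyrotropes, a log2 ratio of 1.09 (0.43 to 1.80). It went the other way in corticotropes, with 6 UMIs in the gnrh3-/- library and 16 in the WT library and a ratio of -1.71 (-3.35 to -0.28), and in somatotropes beta, with 7 and 18 UMIs and a ratio of -1.62 (-3.12 to -0.29). In this list 10 of 23 pairs were 2-fold higher and 2 lower, beside 3.23% and 4.43% over all genes, and 9 of the higher ones were pomca in types other than corticotropes and melanotropes. The estimate of free RNA was higher in the gnrh3-/- library in every type, for example 0.781% against 0.313% (WT) in LH gonadotropes. The pomca ratios were not recomputed without free RNA, doublets or foreign-hormone cells, and the part of these was not tested. Of 9 other receptors, 7 symbols were listed, 4 had a UMI and none reached 20 UMIs in a type. mc2r, the corticotropin receptor, had 0 UMIs in the gnrh3-/- library and 1 in the WT library.

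Of 7 genes of steroid metabolism, hsd11b1la and hsd20b2 had at least 20 UMIs in a type. hsd11b1la was highest in somatolactotropes alpha, at 1.43 in the gnrh3-/- library and 1.39 in the WT library, and hsd20b2, which reduces cortisone further, in somatotropes beta, at 0.698 and 0.392. The list had 16 pairs, 1 of them 2-fold higher and 0 lower. Of the 8 receptor chaperones, 5 of 84 pairs were 2-fold higher (5.95%) and 0 lower, beside 3.23% and 4.43% over all genes, with a median log2 ratio of 0.02. hsp90aa1.2 made up 4 of the 5. It was 40.2 in gnrh3-/- and 7.50 in WT somatolactotropes beta. In undetermined cells it had 48 UMIs in the gnrh3-/- library and 0 in the WT library. With the WT count set to a floor of 3, this is 14.7-fold higher, and the lower limit of the log2 ratio was 3.52. That limit covers counting error only, and the type had 17 gnrh3-/- and 11 WT cells. Of the 7 coregulators, 1 of 61 pairs was higher and 1 lower, with a median of -0.26.

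The 19 other glucocorticoid targets gave 155 pairs, of which 21 were 2-fold higher (13.5%) and 7 lower (4.52%), beside 3.23% and 4.43% over all genes, with a median of 0.14 beside -0.07 over all genes. zbtb16a, a zinc finger gene induced by glucocorticoids in mammals, accounted for 5 of the 21. It was 1.68 (261 UMIs) in gnrh3-/- corticotropes and 0.731 (93 UMIs) in WT corticotropes, a log2 ratio of 1.2 (0.85 to 1.56), and the ratio in somatotropes alpha was 1.68 (1.37 to 2.01). In corticotropes foxo3b was also past 2-fold, at 0.225 and 0.0943. Other targets had ratios below 0 in corticotropes. The log2 ratio was -0.54 for per1a, -0.43 for per1b, -0.55 for cebpd and -0.63 for nfkbiaa, with counting intervals below 0. Among the genes of corticotropes these were at percentiles 21.0, 26.3, 20.4 and 16.8, within the spread of all genes. For sesn1 and dusp1 the ratio was 0.94 and 0.27 there, with intervals above 0, at percentiles 96.0 and 78.9. sesn1, a stress-response gene, was higher in LH gonadotropes, at 0.826 in the gnrh3-/- library and 0.342 in the WT library. Its log2 ratio was below 0 in thyrotropes, at -0.75 (-1.40 to -0.12), and in lactotropes, at -0.81 (-1.43 to -0.20). ddit4 was higher in somatotropes beta, at 0.472 and 0.181. nfkbiab, an inhibitor of NF-kB, was lower in FSH gonadotropes, at 0.588 and 1.40, and in lactotropes, at 0.755 and 1.73. her6+ cells had the highest levels of sgk1, at 8.78 and 9.68, and of igfbp1a, at 2.30 and 2.39. In LH gonadotropes igfbp1a had 47 UMIs in the gnrh3-/- library and 0 in the WT library, which is 11.3-fold higher with the WT count set to 3. LH gonadotropes had 27 called doublets and 29 foreign-hormone cells in the gnrh3-/- library, and 1 and 2 in the WT library. The igfbp1a counts were not recomputed without these cells.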

How the data were processed

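Single-cell RNA libraries of pooled pituitaries were analysed, 1 for gnrh3-/- and 1 for WT females. The authors deposited raw UMI counts of every barcode by gene, together with an annotation of the kept cells (genotype and type). Their processing notes and methods name Cell Ranger 6.0.2, GRCz11, protein-coding genes of Ensembl release 106 and Seurat 4. In the kept cells 0 entries of the joint count matrix differed from those of the separate libraries. Of 14 deposited types, 1 is not reported here. Over all barcodes there were 38809315 UMIs in the gnrh3-/- library and 25405369 in the WT library.

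Counts were summed by type and library with Python 3.11.15, numpy 2.4.6, scipy 1.17.1 and pandas 2.3.3, and figures were drawn with matplotlib 3.10.9. Shares of cells have exact Clopper-Pearson 95% intervals, and cells under 2000 UMIs were left out of the thinned shares. Empty droplets are other barcodes with 10 to 100 UMIs. The limit printed for a count of 0 is that of 3 counts. The genes named are the 10 members, the 3 genes most like each member with at least 200 UMIs, and fixed lists of axis genes. Members and lists were chosen with earlier results of these data known. Genes named from the lists were picked for their size or role after their values were seen.

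The alternatives were per-cell means, TMM scaling (edgeR 4.0.16 in R 4.3.3), totals without hormone genes, subtraction of free RNA, no Scrublet doublets (scanpy 1.11.5, expected rate 0.05), no foreign-hormone cells, a minimum of 1000 UMIs per cell, removal of the cell with the highest count, other UMI minimums, thinning to 1000 UMIs, and a pseudocount of 0.5. The pair counts without doublets or foreign-hormone cells were added after seeing the data. The computation was tested on simulated data.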

Additional observations from a re-analysis of the deposited data

Results flagged for a closer look

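For 3 genes the log2 ratio of levels, gnrh3-/- over WT, lay above 0 in some type and below 0 in another, with counting intervals that did not contain 0. The difference between the types was not tested in any of them, since each genotype has 1 library. For hsd11b2 the ratio in somatotropes beta minus that in isl1+ cells was 4.54. The first of these ratios was 3.07, with 1.08 without doublets and 2.96 without foreign-hormone cells. The WT level behind the second came from 1 cell and was 0 without it. For tsc22d3 the ratio in melanotropes minus that in somatolactotropes beta was 2.12. For klf9 the ratio in LH gonadotropes minus that in lactotropes was 1.82.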

How the results depend on the processing

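With the hormone genes left out of the total, levels in corticotropes were, in the gnrh3-/- and WT libraries, 0.967 and 1.11 for crhr1, 1.60 and 3.47 for nr3c1, and 15.5 and 17.4 for hsd11b2. That of nr3c2 was 0.596 in the gnrh3-/- library. For tsc22d3 in somatotropes beta they were 5.30 and 5.94. As a mean over cells, the WT level of fkbp5 in somatolactotropes alpha was 13.2 and that of tsc22d3 in somatotropes beta 3.71. Of the member pairs past 2-fold, 1 was higher and 1 lower of 43 with a minimum of 100 UMIs, and 10 higher and 10 lower of 82 with a minimum of 5 (8.67% and 10.7% over all genes). They were 3 and 3 of 60 under TMM scaling (4.19% and 3.05%), 2 and 6 of 58 without doublets (3.13% and 4.5%), and 2 and 3 of 57 without foreign-hormone cells (3.16% and 4.41%). Of the 60 log2 ratios, TMM scaling changed the sign of 7 and the mean over cells of 5. With a pseudocount of 0.5, 2 of 7 members kept all 3 of their most similar genes. The cause of these changes was not tested. No paired analysis was possible because each genotype has 1 library. Depth limits crhr2, avpr1aa and avpr1ab, which had at most 5 UMIs in a library, and the small types, where 1 cell can set a level.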

Other observations

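Other values in the 2 libraries are given without an explanation. zbtb16a was past 2-fold higher in gnrh3-/- somatotropes beta as well, with a level of 1.26 (308 UMIs), against 0.480 (98 UMIs) in WT somatotropes beta. hsp90aa1.2, a gene of the Hsp90 chaperone, was 11.96 in gnrh3-/- somatolactotropes alpha and 5.03 in WT somatolactotropes alpha, and 22.0 in gnrh3-/- isl1+ cells and 9.87 in WT isl1+ cells. glula, a glutamine synthetase gene, was 0.186 in gnrh3-/- LH gonadotropes and 0.0736 in WT LH gonadotropes.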
